A study of Mus musculus with 6 samples.

Results

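Mitochondrial fatty acid oxidation was followed through 36 genes: the carnitine shuttle, the enzymes of the beta-oxidation spiral, the electron transfer flavoproteins, ketone use, fuel-switch genes, and the PPAR receptors with their coactivators. They were chosen by name, and earlier results of these data were known when the list was made. Of the 36, 34 had a probe set that carries no other gene symbol, and each was read through the brightest such probe set by mean log2 signal over all arrays. Bdh1 lay below the brightness limit for testing, a signal of 497.8, which was the median of all probe sets. Cpt1b and Ucp2 were not analysed here. The remaining 33 were tested, among 10972 tested genes of 18193 in all.

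The arrays hold RNA of whole mouse lung at E18.5, shortly before birth, hybridised to MOE430 V2 chips. In 3 samples the respiratory epithelium lacked Scap (genotype Scap d/d), and 3 were controls, all 6 on a mixed background of the FVB/N strain and B6. Scap carries the SREBP transcription factors, which switch on sterol and fatty acid synthesis, from the endoplasmic reticulum to the Golgi. The series asks what this loss does to lung lipid balance. The alleles of the controls and the promoter that drives the deletion are not given in the sources used here. Whether each sample came from its own animal is not labelled either, and the p-values thus reflect a spread among samples that could be technical.

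Fatty acids enter mitochondria as carnitine esters, are shortened by repeated dehydrogenation, hydration, dehydrogenation and thiolysis, and pass electrons to the respiratory chain through the electron transfer flavoprotein. Malonyl-CoA, the first committed product of fatty acid synthesis, blocks the entry enzyme carnitine palmitoyltransferase 1, so synthesis and oxidation tend to oppose each other. PPAR alpha and PPAR delta, with PGC-1 coactivators, are known inducers of many of these genes, and fatty acids are their ligands.

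Scap read 55.9% of control on the log2 scale with overlapping groups (exact two-sided permutation p = 0.2, 6 arrays allowing no p below 0.1; limma adjusted p = 0.808). Its log2 difference of -0.84 became -0.50 without control replicate 1, which read 7264 against 4195 and 3080 in the other controls. All 9 alveolar type II markers and all 10 general epithelial markers with a probe set had a mean above the brightness limit. The summed alveolar type II signal ranged from 346344 to 423438 over the control arrays and from 304175 to 363275 over the Scap-deleted arrays. Of these 9 markers, 7 were lower, with a median at 89.6% of control. An unadjusted limma p of at most 0.05 was found for 4, all lower, 44.4% against 5.92% of all genes tested. The summed general epithelial signal lay the other way, from 102377 to 109970 in controls and from 109304 to 112164 in Scap-deleted lungs, with 7 of 10 markers higher and a median at 104.4% of control. Its markers ranged from 77.3% to 115.5% of control. Only 1 of the 10 had an unadjusted limma p of at most 0.05, and it was lower, 10% against 5.92% of all genes tested. In whole lung, fewer cells of a type and less RNA per cell cannot be told apart. Among 15 heart and skeletal muscle markers, 8 were above the limit. All 8 had a positive log2 difference, with a median at 114.1% of control. The sum over all 15 ranged from 46246 to 57652 over the control arrays and from 47618 to 82195 over the Scap-deleted arrays. The highest sum was that of Scap-deleted replicate 1, where the atrial hormone gene Nppa read 11125 against 56.7 to 350.4 in the other 5 arrays. Summed over every marker with a probe set, endothelial markers (10 of 10 above the limit) were 117111 to 128270 and 107406 to 117077, leukocyte markers (11 of 12) 36204 to 43058 and 35296 to 45733, mesenchymal markers (10 of 10) 311937 to 385641 and 354601 to 361798, and liver and erythroid markers (2 of 9) 16818 to 27724 and 13392 to 17948, controls first. Of the 10 endothelial markers 9 were lower, with a median at 88.3% of control. An unadjusted limma p of at most 0.05 was found for 1, lower, 10% against 5.92% of all genes tested. Of 11 tested leukocyte markers 9 were higher (median 109.6%), and of 10 mesenchymal markers 6 were lower (median 98.6%). The 2 tested liver and erythroid markers were lower (median 83.8%). These last lists each held 0 markers at that p. Single liver markers were high in some controls. Afp, a fetal liver protein gene, read 6700 in control replicate 2 against 22.2 to 693.2 in the other 5 arrays, and Alb, albumin, read 1800 and 1048 in control replicates 1 and 2 against at most 260.5 in the rest. Of 9 brown fat markers only Ppargc1a, itself an oxidation gene here, was above the limit, and Ucp1 read 8.0 to 44.8.

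No fatty acid oxidation gene passed the test. At a limma adjusted p of 0.05 (Benjamini-Hochberg over all 10972 genes), 0 of 33 were called, with adjusted p from 0.808 to 0.999, and 0 in each alternative fit. Of all genes tested, 1 was called, 0.00911%, and none with the replicate number as a block. At an unadjusted limma p of 0.05, 2 of 33 members passed, Acot2 upward and Ppard downward, against 5.92% of all genes tested. With the replicate block 3 of 33 did so, Acot13 being the other, against 8.70%. That count of 2 was 0 without Scap-deleted replicate 1, 1 without control replicate 3 and 4 without Scap-deleted replicate 3, where 4.93%, 6.64% and 6.98% of all genes passed in that order.

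The members lay on both sides of no difference. Of the 33, 18 read lower and 15 higher in Scap-deleted lungs, where 48.3% of all genes read lower. The median member stood at 97.8% of control (log2 difference -0.03) and the median of all genes tested at 100.4%. The members' median turned positive when single arrays were left out, being 0.0089 without control replicate 3, 0.0092 without Scap-deleted replicate 2 and 0.0035 without Scap-deleted replicate 3. It was 0.03 without both arrays numbered 3, and -0.09 without control replicate 2. Most of the members' differences also changed in relative size with single arrays. The change is taken relative to the main difference, so small differences turn or move easily. The share of all genes that did so was not taken. On leaving out 1 array, 16 of 33 members turned sign and 11 more moved by over 1.5 times. The 6 that stayed within that for every array left out were Crat, Hadh, Echs1, Etfb, Acot2 and Ppard. Of the members, 20 lay between 90% and 110% of control, 60.6% of them, and 66.8% of all genes tested did so.

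The arrays limit how small a change could have been seen. The 95% interval of the difference stayed inside a 2-fold change in either direction for 32 of 33 members, the exception being Ppargc1a, and inside a 1.5-fold change for 25. These shares, 97.0% and 75.8%, stood beside 97.2% and 80.8% of all genes tested. The members' median within-group SD was 0.13 on the log2 scale, and 0.15 for all genes tested.

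**Figure D1:**
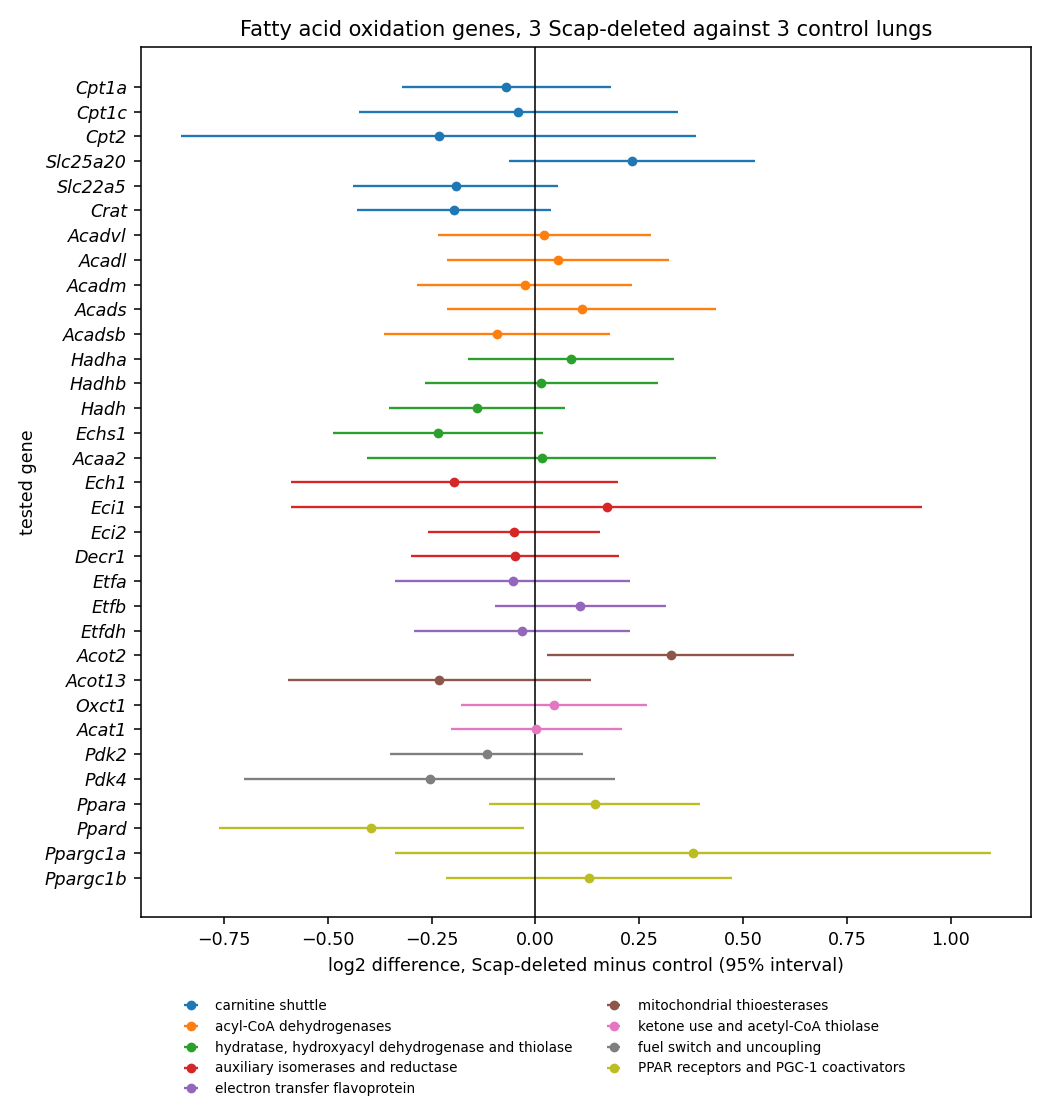
Log2 difference (x axis, Scap-deleted minus control) of the 33 tested fatty acid oxidation genes (y axis), coloured by role, with points for the limma estimate and bars for its 95% interval over 3 arrays a group. The intervals of Acot2, above 0, and Ppard, below 0, are the 2 that leave out 0, and Ppargc1a and Eci1 have the widest.

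**Figure D2:**
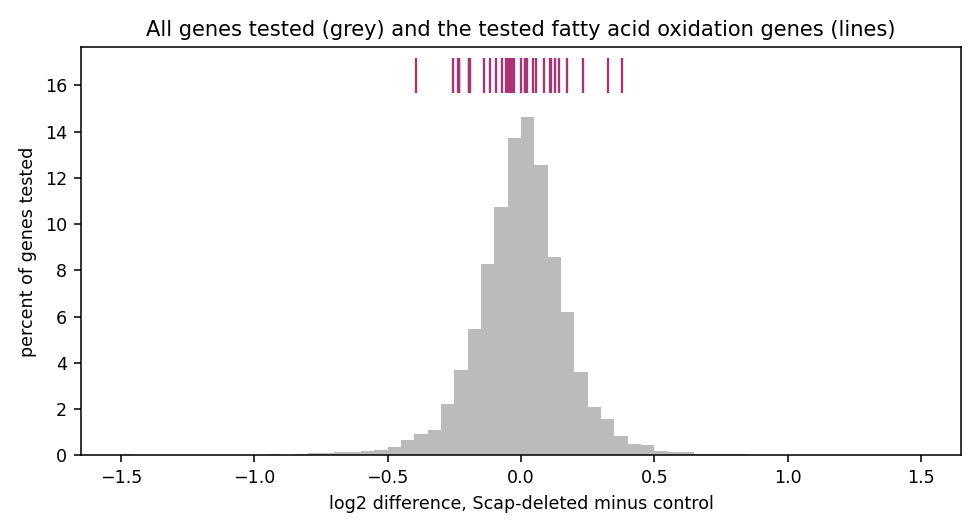
Histogram of the log2 difference (x axis) as percent of the 10972 genes tested (y axis, grey bars of width 0.05, values beyond 1.5 gathered in the end bars), with a line above it for each of the 33 fatty acid oxidation genes. The lines lie between -0.39, Ppard, and 0.38, Ppargc1a, across the body of the distribution.

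Groups did not overlap in 5 of 33 members, 15.2%, against 11.8% of all genes tested: Slc22a5, Crat and Hadh were lower in all Scap-deleted arrays than in any control (5.72% of all genes were), and Etfb and Acot2 higher (6.11%). By themselves these separations are near the background share. Centring the arrays on their medians, or averaging a gene's probe sets, left 2 such members, 6.06%, against 10.1% and 11.2% of all genes. With fewer arrays separation is easier, for the members and for all genes. Without control replicate 1 the count was 7 (21.2%, against 19.3% of all genes). It was 13 without control replicate 2 (39.4%, against 22.6%) and 8 without control replicate 3 (24.2%, against 24.0%). Leaving out Scap-deleted replicates 1, 2 and 3 in turn gave 6 (18.2%, against 20.1%), 8 (24.2%, against 19.8%) and 10 (30.3%, against 24.5%).

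Because PPAR receptors bind direct repeats of a short core, the 250 bases before each start listed in a RefSeq promoter table were searched on both strands (GRCm38.p6, 29 of the 36 genes matched, with 31 starts). The direct repeat AGGTCANAGGTCA was found in 0 of 29, and in 0.0407% of all 27025 genes of the table. Its core AGGTCA, which also lies inside that repeat, was found in 5 of 29, 17.2%, and in 15.8% of all genes. The sterol element core TCACNCCAC, of the kind SREBPs bind, was found in Ucp2 alone, and in 1.22% of all genes. The longer core TCAAGGTCA of oestrogen-related receptors, which contains AGGTCA, was found in 0 of 29 and in 0.422% of all genes. A match is a description of letters and not a binding site. Only exact letters within these 250 bases were searched. Both the direct repeat and the longer core are so rare among all genes that 0 of 29 says nothing about the members. The 5 stretches with the AGGTCA core, or its reverse complement, are shown as letters only, their share of 17.2% being near that of all genes. The core is in capitals and each stretch is read 5′ to 3′ on its gene's strand.
Cpt1a (chr19:3323187-3323232, plus strand): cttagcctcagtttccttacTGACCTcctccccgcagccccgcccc
Cpt1c (chr7:44974972-44975017, minus strand): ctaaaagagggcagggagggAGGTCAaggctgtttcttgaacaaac
Acadvl (chr11:70015490-70015535, minus strand): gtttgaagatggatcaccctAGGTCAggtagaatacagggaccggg
Acadm (chr3:153944867-153944893, minus strand): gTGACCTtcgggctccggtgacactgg
Echs1 (chr7:140116479-140116524, minus strand): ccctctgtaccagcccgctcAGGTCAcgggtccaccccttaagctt
In the arrays these 5 genes stood at 95.3%, 97.2%, 101.5%, 98.2% and 85.0% of control in that order, each with overlapping groups. The core lies 94 to 89 bases before the listed start in Cpt1a, a start that is 975 bases inside the outer bound of the gene in the RefSeq gene table, 146 to 141 in Cpt1c, 87 to 82 in Acadvl, 249 to 244 in Acadm and 83 to 78 in Echs1.

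The carnitine shuttle had 5 of 6 tested genes with negative differences, where 48.3% of all genes read lower, and a median at 91.3% of control. Of the 6, 0 passed the adjusted limma test or an unadjusted p of 0.05. Averaging a gene's probe sets turned Cpt1a and Crat positive, and Cpt1a, Cpt1c and Cpt2 turned sign when single arrays were left out. Cpt1a, the liver-type carnitine palmitoyltransferase at the entry to the pathway, read 5095, 4535 and 5065 in controls and 4926, 4184 and 4911 in Scap-deleted lungs. The ranges overlap, with replicate 2 lowest in each group. Its level was 95.3% of control (log2 difference -0.07, SE 0.11, limma adjusted p = 0.966), with a 95% interval of 80.0% to 113.4%. A dimmer Cpt1a probe set above the limit read 134.9%.

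Cpt2, the inner-membrane partner that regenerates acyl-CoA, read 2330, 3382 and 2492 in controls and 3225, 2384 and 1571 in Scap-deleted lungs. The arrays of both groups are widely scattered and the lowest is Scap-deleted replicate 3. The difference of -0.23 (SE 0.27, adjusted p = 0.955) became 0.04 without that array and -0.07 without control replicate 2, where Cpt2 is highest. Slc25a20, the carnitine-acylcarnitine carrier of the inner membrane, was the positive member at 117.5% (95% interval 95.6% to 144.3%), though its other probe set showed a difference of 0.06. Its main difference of 0.23 was 0.13 without control replicate 3. Cpt1c, the brain-type isoform, stood at 97.2%.

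Slc22a5, the cell's carnitine importer OCTN2, read 2234, 2240 and 2221 in controls and 2129, 1730 and 2027 in Scap-deleted lungs. The controls lie very close to each other and above all Scap-deleted arrays. The level was 87.6% of control (log2 difference -0.19, SE 0.11, adjusted p = 0.876), and the difference was -0.10 without Scap-deleted replicate 2. A dimmer Slc22a5 probe set above the limit read 91.8% with overlapping groups. Crat, carnitine acetyltransferase, which buffers acetyl-CoA, read 1860, 2174 and 2142 in controls and 1722, 1819 and 1844 in Scap-deleted lungs. The groups are separated by a narrow gap between the lowest control, replicate 1, and Scap-deleted replicate 3. The level was 87.4% (-0.20, SE 0.10, adjusted p = 0.865), while a dimmer Crat probe set above the limit turned the other way at 146.2%.

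The acyl-CoA dehydrogenases, which carry out the first step of each round for chains of different length, were close to control in all 5 members, with a median at 101.5% and a range of 93.8% to 108.0%. Acadm, the medium-chain enzyme, read 8656, 7335 and 8253 in controls and 8143, 7175 and 8498 in Scap-deleted lungs. The arrays interleave, again with replicate 2 lowest in each group. Its difference was -0.03 (SE 0.11, adjusted p = 0.990; 95% interval 82.1% to 117.6% of control). Acadvl, the very-long-chain enzyme, stood at 101.5%, Acadl, the long-chain enzyme, at 103.9%, Acads, the short-chain enzyme, at 108.0% and Acadsb, which acts on short branched chains, at 93.8%. Acads was higher in the Scap-deleted array of each of the 3 same-numbered pairs.

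Among the 5 genes of the later steps, the median was 101.0% of control. Hadha, the alpha subunit of the trifunctional protein that handles long chains, read 6407, 5387 and 6502 in controls and 6500.2, 6629 and 6215 in Scap-deleted lungs. The Scap-deleted arrays sit close together near the top of the control range, with replicate 2 above the highest control. The level was 106.1% (log2 difference 0.09, SE 0.11, adjusted p = 0.959), and its partner subunit Hadhb stood at 101.0%. Dimmer Hadhb probe sets above the limit read 93.0% and 125.0%.

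Hadh, the short-chain hydroxyacyl-CoA dehydrogenase, read 15288, 14619 and 16201 in controls and 14515, 13428 and 13885 in Scap-deleted lungs. The gap between the groups, from control replicate 2 to Scap-deleted replicate 1, is narrow beside the spread within them. The level was 90.8% (-0.14, SE 0.09, adjusted p = 0.897), and the next Hadh probe set read 110.8% with overlapping groups. Echs1, the short-chain enoyl-CoA hydratase, stood at 85.0% (log2 difference -0.23, SE 0.11, adjusted p = 0.849) and was lower in all 3 same-numbered pairs. Acaa2, the mitochondrial thiolase, stood at 101.0%, with control replicate 1 far below its group at 5110 against 7620 and 8195. Without that array the Acaa2 difference was -0.19. The other Acaa2 probe sets above the limit read 114.0% and 96.3%. Control replicate 1 was not the lowest control in either, at 4751 against 5028 and 3998, and at 4603 against 4503 and 5247.

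The auxiliary enzymes for unsaturated fatty acids had a median at 96.6%, with 3 of 4 negative. Eci2, an enoyl-CoA isomerase, stood at 96.5% and Decr1, the dienoyl-CoA reductase, at 96.7%, although the other Decr1 probe set read 87.0% with all Scap-deleted arrays below all controls. Ech1, a dienoyl-CoA isomerase, stood at 87.3%, but its log2 difference of -0.20 became -0.02 without control replicate 3, which read 10593 against 7631 and 6977 in the other controls. Eci1, another enoyl-CoA isomerase, read 3377, 2693 and 6828 in controls and 4220, 5388 and 3900 in Scap-deleted lungs. Control replicate 3 alone lies above every Scap-deleted array, and the other controls lie below them all. The Eci1 difference of 0.17 (SE 0.32) became 0.56 without that control array (adjusted p = 0.712) and -0.11 without control replicate 2.

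The electron transfer flavoprotein genes, which pass electrons from the dehydrogenases to ubiquinone, had a median at 97.8% of control. Etfb, the beta subunit, read 7743, 7228 and 7576 in controls and 7913, 7936 and 8458 in Scap-deleted lungs. All Scap-deleted arrays lie above all controls by a small margin. The level was 107.8% (log2 difference 0.11, SE 0.09, adjusted p = 0.917). Etfdh, the membrane oxidoreductase that receives the electrons, read 3657, 2983 and 3521 in controls and 3292, 3113 and 3503 in Scap-deleted lungs. These overlap, at 97.8% of control (-0.03, SE 0.11, adjusted p = 0.986). Etfa, the alpha subunit, stood at 96.3%.

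Acot2, a mitochondrial thioesterase that frees fatty acids from their CoA esters and is a known PPAR alpha target, read 3325, 3839 and 2894 in controls and 4502, 4157 and 3884 in Scap-deleted lungs. All Scap-deleted arrays lie above all controls, the nearest pair being control replicate 2 and Scap-deleted replicate 3. The level was 125.3% of control (95% interval 102.0% to 154.0%; log2 difference 0.33, SE 0.13, limma adjusted p = 0.808, and 0.505 to 0.999 over the alternatives). A dim Acot2 probe set below the limit read 69.6%. Acot1, a near-identical cytosolic thioesterase whose transcripts the probes may not tell apart, went the other way, with 4417, 5167 and 4350 in controls and 4249, 4133 and 3747 in Scap-deleted lungs (87.2% of control, adjusted p = 0.876). Acot13, a smaller thioesterase, stood at 85.2%, with a limma adjusted p of 0.899, and 0.556 with the replicate block. Its difference of -0.23 was -0.12 without control replicate 3 and -0.36 without Scap-deleted replicate 3.

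The 2 tested genes of ketone use stood close to control. Acat1, the mitochondrial acetoacetyl-CoA thiolase, read 9618, 10161 and 10033 in controls and 10009, 10364 and 9489 in Scap-deleted lungs. The control range lies inside that of the Scap-deleted arrays. Its level was 100.1% of control (95% interval 86.8% to 115.5%; log2 difference 0.0019, SE 0.09, adjusted p = 0.999). Oxct1, which activates ketone bodies, stood at 103.1%, and its other 3 probe sets differed from control by 0.01 to 0.04 on the log2 scale. Bdh1, the hydroxybutyrate dehydrogenase, ranged from 227.5 to 537.6 over the control arrays and from 281.0 to 468.9 over the Scap-deleted arrays, with a mean below the limit, and was not tested.

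Of the genes that switch fuel use, Pdk4, the PPAR-induced kinase that shuts pyruvate out of the mitochondrion's oxidation, read 1740, 1609 and 2008 in controls and 1284, 1282 and 2011 in Scap-deleted lungs. Scap-deleted replicates 1 and 2 lie below all controls, and replicate 3 reads level with the highest control. The level was 83.8% (log2 difference -0.25, SE 0.19, adjusted p = 0.901). Without Scap-deleted replicate 3 the difference was -0.47 (adjusted p = 0.536), and without both arrays numbered 3 it was -0.38. Pdk2, a constitutive kinase of the same family, stood at 92.2% and was lower in all 3 pairs.

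**Figure D3:**
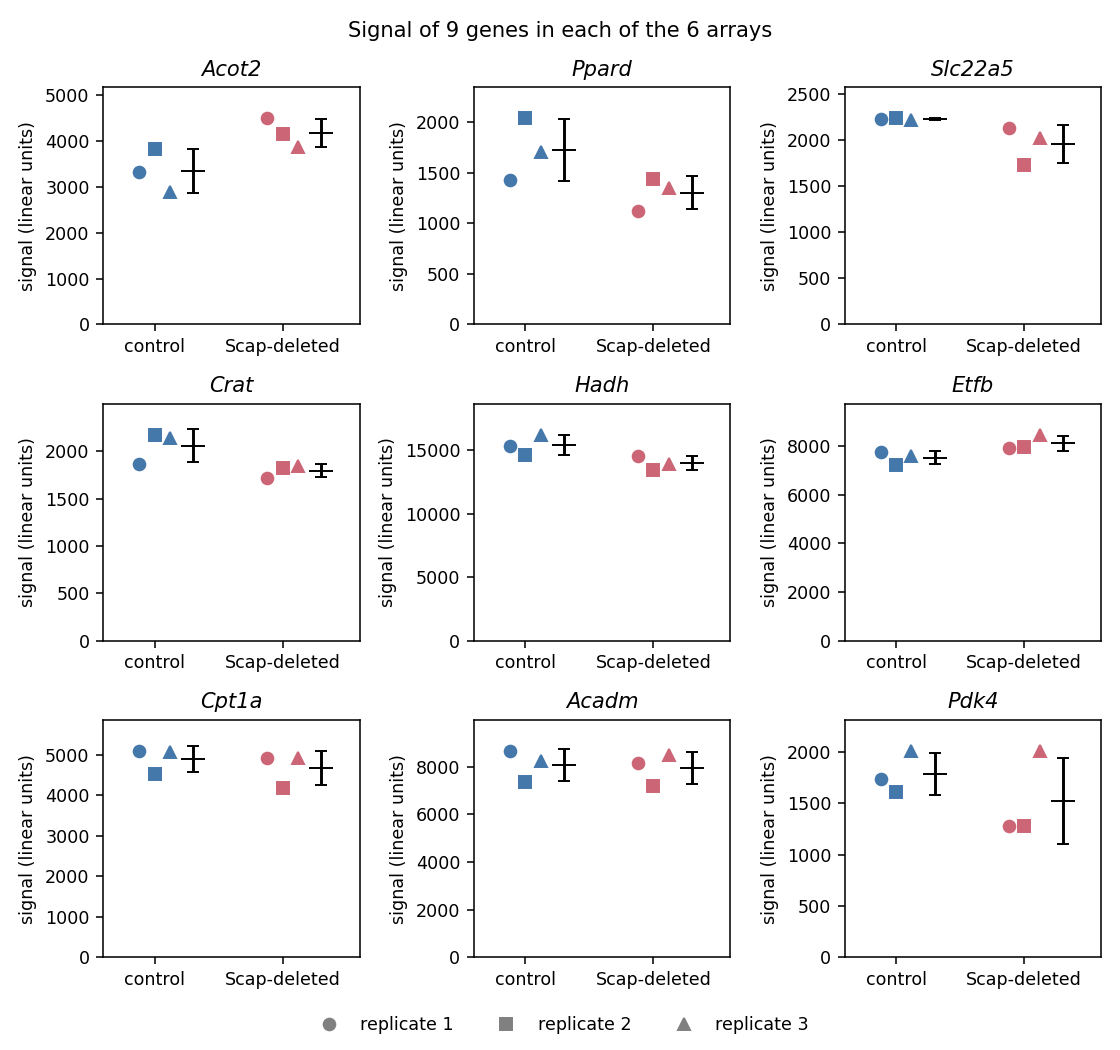
Signal (y axes, linear units from 0) of 9 fatty acid oxidation genes in each control (blue) and Scap-deleted (red) array, with a symbol for each replicate number and the mean ± SD of 3 arrays as bars. Acot2 and Etfb lie higher and Slc22a5, Crat and Hadh lower in every Scap-deleted array, while Ppard, Cpt1a, Acadm and Pdk4 overlap.

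The receptors and coactivators that control the pathway did not move together. Ppard, the broadly expressed receptor, read 1428, 2042 and 1703 in controls and 1126, 1440.2 and 1347 in Scap-deleted lungs. The groups overlap only through control replicate 1 and Scap-deleted replicate 2, and within each same-numbered pair the Scap-deleted array is lower. The level was 76.1% of control (95% interval 58.9% to 98.1%; log2 difference -0.39, SE 0.16, limma adjusted p = 0.808, and 0.389 to 0.999 over the alternatives). The difference was -0.27 without control replicate 2 and -0.52 without control replicate 1.

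Ppara, the receptor best known from liver and heart, read 705.5, 791.2 and 646.0 in controls and 829.7, 789.0 and 740.9 in Scap-deleted lungs by its brightest probe set. The groups overlap and the level was 110.4% (log2 difference 0.14, SE 0.11, adjusted p = 0.902). The other Ppara probe sets above the limit turned the other way, at 86.7% and 73.9%. The dimmer of these read 816.8, 567.6 and 597.5 in controls and 502.8, 542.1 and 410.3 in Scap-deleted lungs, all below the controls, so the direction of Ppara depends on the probe set.

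Ppargc1a, which encodes PGC-1 alpha, the coactivator of mitochondrial programmes, read 632.3, 594.3 and 811.6 in controls and 811.6, 579.4 and 1425 in Scap-deleted lungs. A single array, Scap-deleted replicate 3, stands far above the rest. The level was 130.0% (95% interval 79.1% to 213.8%; log2 difference 0.38, SE 0.31, adjusted p = 0.917), and the difference was 0.03 without that array. The 3 other Ppargc1a probe sets above the limit read 104.0% to 108.2%. Ppargc1b, the related coactivator, stood at 109.3% and was higher in all 3 pairs, with a difference of 0.13 that ranged from 0.02 without Scap-deleted replicate 2 to 0.25 without control replicate 2.

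**Figure D4:**
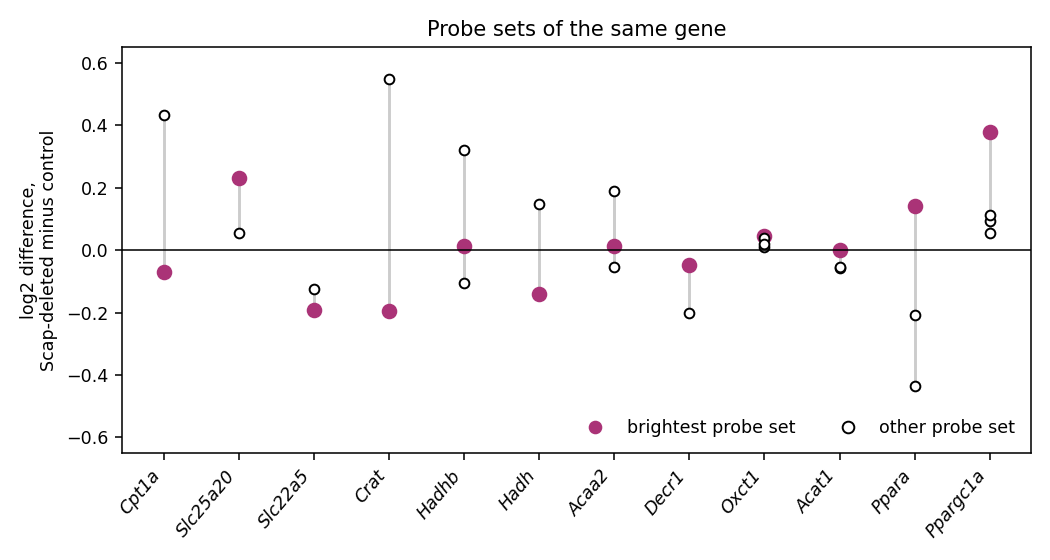
Log2 difference (y axis, Scap-deleted minus control) of each probe set above the brightness limit for the 12 fatty acid oxidation genes with more than 1 (x axis), with the brightest filled and the others open. Of the 20 other probe sets, 9 lie on the opposite side of 0 from the brightest, as in Cpt1a, Crat, Hadh and Ppara.

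Probe sets of the same gene disagreed often. Of 20 further member probe sets above the limit, 9 had the opposite sign to the brightest, 6 had the same sign with less than 50% of the difference, and 5 the same sign with at least that share. Averaging a gene's probe sets turned the signs of Cpt1a, Crat, Hadh, Acat1 and Ppara.

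Across arrays, the members as a set were highest in control replicate 3. Their mean log2 deviation from each gene's own average was 0.11 there, and -0.05 to 0.02 in the other 5 arrays, while all genes tested averaged 0.02 in that array. Of the 33 members, 18 had their highest control reading in replicate 3 and 19 their lowest in replicate 2. Over all 6 arrays, 12 members peaked in control replicate 3, the most of any array, and 10 were lowest in Scap-deleted replicate 2. Within same-numbered pairs, 8 members were lower in the Scap-deleted array of all 3, 24.2% against 15.3% of all genes tested, and 4 were higher in all 3, 12.1% against 15.6%.

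Scap-deleted replicate 1, with the highest sum of heart and muscle markers, was the highest of the 6 arrays for 4 members, Acadl, Oxct1, Acot2 and Ppara. Without it their differences were -0.05, -0.0034, 0.27 and 0.10, against 0.05, 0.04, 0.33 and 0.14 with it. Scap-deleted replicate 3, whose heart and muscle sum of 62675 was also above every control, was the highest array for 6 members, Ppargc1a among them. The part of the heart and muscle markers in these values was not tested, nor that of the other marker sums in any value here.

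**Figure D5:**
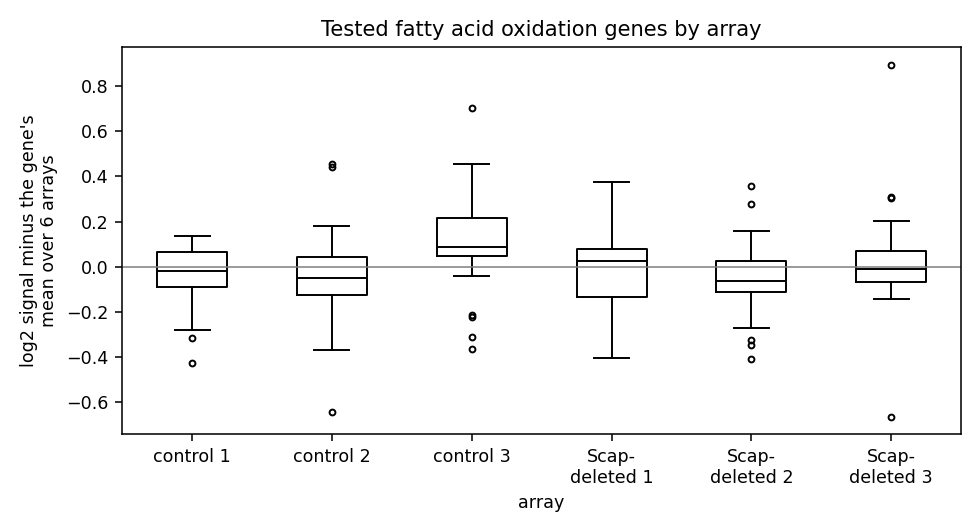
Log2 signal minus the gene's mean over the 6 arrays (y axis) for the 33 tested fatty acid oxidation genes in each array (x axis); boxes span the quartiles with the median as a line, whiskers reach to 1.5 times the box height, and circles are genes beyond. Control replicate 3 stands above 0, where its members average 0.11, and the other arrays average -0.05 to 0.02.

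Of 69 neighbouring genes of the pathway tested, 2 had an unadjusted limma p of at most 0.05, Vnn1 and Acaca, which is 2.90% against 5.92% of all genes. With the replicate block 6 did, 8.70%, against 8.70% of all genes. The lists held 0 genes with an adjusted p of 0.05, with or without the replicate block. Of 24 further mitochondrial acyl-CoA and ketone genes tested, 16 were lower and the median stood at 95.4% of control, with 0 at an unadjusted p of 0.05. Mccc1, a methylcrotonyl-CoA carboxylase subunit of leucine breakdown, stood at 82.7% (adjusted p = 0.859). Of 9 further PPAR-induced genes tested, 6 were lower, and 1 had an unadjusted limma p of at most 0.05, or 2 with the replicate block. Vnn1, a pantetheinase and PPAR alpha target, read 8801, 7226 and 8948 in controls and 5457, 4972 and 6636 in Scap-deleted lungs. All Scap-deleted arrays lie below all controls, at 68.1% (log2 difference -0.55, SE 0.14, adjusted p = 0.729). Angptl4, a PPAR-induced inhibitor of lipoprotein lipase, stood at 122.0% (adjusted p = 0.889), and its difference of 0.29 was 0.13 without Scap-deleted replicate 3.

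Of 14 tested genes of the malonyl-CoA brake and of fuel entry, 12 were lower, with a median at 94.4%, and 1 had an unadjusted limma p of at most 0.05, or 3 with the replicate block. Acaca, which makes malonyl-CoA, read 2459, 2215 and 2320.2 in controls and 1592, 1866 and 2033 in Scap-deleted lungs. The groups are separate and the level was 78.2% (log2 difference -0.36, SE 0.12, adjusted p = 0.739). Acacb, which also makes malonyl-CoA, lay below the brightness limit and was not tested (mean signal 255.1 for control arrays, 148.1 for Scap-deleted arrays). The source of the malonyl-CoA that inhibits carnitine palmitoyltransferase 1 was not tested. Mlycd, which breaks malonyl-CoA down, stood at 119.7% (log2 difference 0.26, SE 0.12, adjusted p = 0.849). Me1, the NADPH-making malic enzyme, stood at 61.8% with an SE of 0.35, its difference of -0.69 ranging from -1.11 without Scap-deleted replicate 3 to -0.45 without Scap-deleted replicate 1.

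Of 16 tested partners and regulators, 9 were lower and the median stood at 97.1%, and 0 had an unadjusted limma p of at most 0.05, or 1 with the replicate block. Prkaa2, a catalytic subunit of AMP-activated kinase, stood at 80.2% and Nrf1, a factor of mitochondrial gene expression, at 123.9%, with adjusted p of 0.849 and 0.868 by limma. Of 6 tested carnitine synthesis and transport genes, 2 were lower, with a median at 100.9%, and Slc25a29, a mitochondrial carrier, stood at 117.4% (adjusted p = 0.894). Among these neighbours, single arrays also moved the log2 difference by over 1.5 times for Acot1, from -0.20 to -0.12 without control replicate 2, and for Mccc1, from -0.27 to -0.16 without Scap-deleted replicate 3. Without control replicate 2 Mlycd went from 0.26 to 0.17. Without Scap-deleted replicate 2 Nrf1 went from 0.31 to 0.17 and Slc25a29 from 0.23 to 0.11, and Slc25a29 was 0.13 without control replicate 2.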

How the data were processed

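Total RNA of the 6 whole-lung samples was purified with RNeasy kits and labelled with biotin, per the labels' protocols. The authors deposited a table of linear intensity per probe set. RMA is named per the submitters' processing notes, but the values are linear, not quantile normalized and not in the form RMA gives. With 2% of values trimmed from each tail, every array averages 1500.0, the mark of scaling to a shared trimmed mean. No source used here states a background correction. Array medians were 490.9 to 530.5 and no gene-wise centring was seen. No detection calls were used.

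Intensities were taken to log2 without a pseudocount. Of 45037 probe sets (64 control probe sets left out), 34945 had a single symbol in the platform annotation, 932 had several and 9160 had none. Group differences came from limma 3.58.1 under R 4.3.3 (lmFit, then eBayes) with 4 residual degrees of freedom, over genes whose brightest probe set averaged at least the overall median. The fit and its intervals were tested on simulated data with independent noise in each array and added differences larger than that of any member. Small differences and noise shared by same-numbered arrays were not simulated. Intervals are for single genes, unadjusted.

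Deviations from the group means correlated at 0.17, 0.20 and 0.43 between samples with the same title number. Same-numbered samples were therefore compared as pairs, and the number was a block in an alternative fit. The main fit, which gave the SEs, intervals and p-values unless the block is named, took no account of the numbers. Control replicate 2 with Scap-deleted replicate 1 also reached 0.18, so the pairing of numbers 1 and 2 rests on the titles. No source used here says what the numbers mean.

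The genes and lists were chosen with earlier results of these data known. By rule all 36 genes were named; readings of every array were given for 10 core genes (Ucp2 had none) and for any with an unadjusted p of at most 0.05 or no overlap. From each further list, genes at that p and up to 2 more of smallest p were named. Eci1, Acaa2, Acot1 and Nppa readings, and the Acacb means, were added after their values were seen. Alternatives were the replicate block, quantile normalization, median centring, a pseudocount of 100, other brightness filters, probe set means, eBayes with trend, and leaving out arrays.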

Additional observations from a re-analysis of the deposited data

How the results depend on the processing

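No fatty acid oxidation gene passed an adjusted p of 0.05 under any of 15 alternatives, the lowest adjusted p being 0.389, for Ppard with the replicate block. The block took the count of all genes called from 1 to 0, the members at an unadjusted p of 0.05 from 2 to 3, and changed no other call among the members. Its counts for the neighbouring genes stand beside those lists. The count of all genes called was also 0 with no filter on dim genes, with the 75th percentile filter, with the trended fit and without both arrays numbered 3, and 0 to 1 on leaving out single arrays. Members at an unadjusted p of 0.05 were 0 with no filter (5.84% of all genes) and 0 to 4 on leaving out single arrays. Non-overlapping members were 2 with centred arrays (10.1% of all genes), 2 with averaged probe sets (11.2%), 14 without both arrays numbered 3 (where 39.0% of all genes separate) and 6 to 13 on leaving out single arrays. The members' median was 0.032 without both arrays numbered 3.

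Of 488 gene and setting combinations 33 turned sign, in 19 of 33 genes. With averaged probe sets the log2 difference was 0.18 for Cpt1a, 0.18 for Crat, 0.0042 for Hadh, -0.036 for Acat1 and -0.17 for Ppara, and without both arrays numbered 3 it was 0.032 for Decr1 and 0.073 for Etfa. On leaving out single arrays it ranged from -0.12 to 0.0080 for Cpt1a, -0.21 to 0.061 for Cpt1c, -0.48 to 0.040 for Cpt2, -0.034 to 0.12 for Acadvl, -0.051 to 0.11 for Acadl, -0.094 to 0.045 for Acadm, -0.0088 to 0.21 for Acads, -0.0019 to 0.13 for Hadha, -0.071 to 0.13 for Hadhb, -0.19 to 0.15 for Acaa2, -0.11 to 0.56 for Eci1, -0.12 to 0.0035 for Decr1, -0.16 to 0.040 for Etfa, -0.12 to 0.026 for Etfdh, -0.0034 to 0.094 for Oxct1 and -0.028 to 0.036 for Acat1. The cause was not tested. The same alternatives, applied to 10 named neighbouring genes after seeing the data, turned no sign and gave no adjusted p below 0.301 (Me1 without Scap-deleted replicate 3). Dim probe sets, with no detection calls, limit what Bdh1, Ppara and Ppargc1a can show.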
